A study of Arabidopsis thaliana with 54 samples.

Results

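The WRKY transcription factor genes of Arabidopsis thaliana were taken as every row of the deposited expression table whose gene name was WRKY followed by a number, which selected 51 of 23997 rows. Of these, 32 reached a mean of at least 1 FPKM (fragments per kilobase of gene, scaled to the size of the library) in at least 1 of 18 groups and are described here, among 10622 genes of the table that passed the same floor. The study sequenced RNA of whole seedlings that were treated for 5, 30 or 180 min with 10 µM guvermectin (GV, a purine nucleoside made by Streptomyces), or with 1 µM of indole-3-acetic acid (IAA, an auxin), trans-zeatin (ZT, a cytokinin), epibrassinolide (eBL, a brassinosteroid) or gibberellin A3 (GA3), or were left as controls. Each of the 18 groups had 3 libraries. The sources used here do not give the ecotype, the seedling age or any solvent in the controls. They also do not state whether the 3 libraries of a group were grown apart, and a p-value below therefore reflects only the spread between these libraries, which may be technical. The GV columns were matched by elimination, because their name in the table does not spell the compound.

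WRKY proteins carry a DNA-binding domain named after its conserved peptide and finished by a zinc finger, and they bind the W-box, a short DNA word with TTGAC at its core. They are best known as activators and repressors in defence against pathogens, where calcium, oxidative and kinase signals reach them within minutes, and they also act in senescence, phosphate supply, drought, root and hair development. Several WRKY genes are themselves induced by wounding, touch and hormones. The family is divided by domain structure into group I with a pair of domains, groups IIa to IIe with 1 domain, and group III with a changed zinc finger. Of the 32 genes described, 5 belong to group I, 2 to IIa, 6 to IIb, 12 to IIc, 3 to IIe and 4 to III. Group IId had 1 gene in the table, WRKY74, which stayed under the floor. The table held 8 genes of group I, 2 of IIa, 6 of IIb, 3 of IIe and 13 of group III. It did not hold every gene of these groups or of group IId. Statements by group below cover the described genes only.

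The promoters of 5 members are shown because the results below turn on them: WRKY60, WRKY48, WRKY53 and WRKY8 had the 4 highest rises with ZT at 5 min, and WRKY45 was called in 10 of 15 comparisons with the control. Each line gives the 250 bases before the annotated start of the gene on its coding strand, read from the RefSeq copy of the TAIR10.1 assembly, in which all 51 members have the coordinates the table gives. The windows lie at chr2:10629412-10629661 on the plus strand for WRKY60, chr5:20090398-20090647 on the plus strand for WRKY48, chr4:12393983-12394232 on the minus strand for WRKY53, chr5:18804057-18804306 on the minus strand for WRKY8 and chr3:327413-327662 on the minus strand for WRKY45. Capitals mark the W-box words TTGACC and TTGACT on either strand, which appear as GGTCAA and AGTCAA where they lie on the other strand.
WRKY60: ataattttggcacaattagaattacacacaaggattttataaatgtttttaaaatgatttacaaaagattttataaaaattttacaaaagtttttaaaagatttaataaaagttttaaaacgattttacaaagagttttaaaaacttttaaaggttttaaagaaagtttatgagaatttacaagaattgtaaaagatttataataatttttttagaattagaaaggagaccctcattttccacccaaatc
WRKY48: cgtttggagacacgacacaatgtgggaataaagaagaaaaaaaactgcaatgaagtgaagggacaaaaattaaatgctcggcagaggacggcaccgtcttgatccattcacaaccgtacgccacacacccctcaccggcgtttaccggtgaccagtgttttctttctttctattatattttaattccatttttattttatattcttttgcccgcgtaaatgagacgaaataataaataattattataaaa
WRKY53: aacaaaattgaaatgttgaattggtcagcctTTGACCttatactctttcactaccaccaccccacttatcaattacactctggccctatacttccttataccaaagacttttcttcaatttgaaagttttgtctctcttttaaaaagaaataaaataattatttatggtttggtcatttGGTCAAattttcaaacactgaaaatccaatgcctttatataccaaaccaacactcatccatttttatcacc
WRKY8: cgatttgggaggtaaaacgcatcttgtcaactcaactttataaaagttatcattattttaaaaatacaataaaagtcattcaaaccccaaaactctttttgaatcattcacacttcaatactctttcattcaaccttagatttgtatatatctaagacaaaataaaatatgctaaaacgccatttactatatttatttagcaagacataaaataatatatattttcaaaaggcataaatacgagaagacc
WRKY45: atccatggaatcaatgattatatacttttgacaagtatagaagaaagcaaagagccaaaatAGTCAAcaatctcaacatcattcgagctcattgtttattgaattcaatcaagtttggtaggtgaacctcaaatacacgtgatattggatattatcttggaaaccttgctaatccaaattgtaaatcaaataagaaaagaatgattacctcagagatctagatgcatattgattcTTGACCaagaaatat

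WRKY53 and WRKY45 each held 2 W-box words in these 250 bases, starting at positions -219 and -71 of WRKY53 and at -189 and -15 of WRKY45, counted from the annotated start. The other 3 windows held none. A word of this kind was present in 34.4% of the 32 described promoters (11 genes) and in 28.4% of all 27443 protein-coding promoters of the same length. Among the 16 members that rose with ZT at 5 min it was present in 7 (43.8%), and among the other 16 in 4 (25%). These are matches of letters and do not show binding.

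Depth set the precision of every value. The value of 1 read in a library implied totals of 17.8 to 23.8 M reads, of which 27.3% to 41.9% lay in the table, and 2962 to 8364 reads per library fell on the 32 members. One read in a gene of 1 kb was worth 0.0421 to 0.0562 FPKM. The table held no row with a mean over all libraries between 10.5 and 344 FPKM, so WRKY genes at those levels were not analysed here. The 19 members under the floor ranged from WRKY64, with 0 reads in all 54 libraries, to WRKY74, with 527 reads. WRKY42 lay just inside the floor with a highest group mean of 1.02 FPKM, and WRKY13 just outside it with 0.612 FPKM. WRKY71, WRKY35 and WRKY42 reached the floor in a single group, ZT at 5 min for WRKY71 and eBL at 30 min for the other two, so their rises there are in part set by the floor. Counts over the 32 members therefore describe them and support nothing by themselves. WRKY61, WRKY9, WRKY40, WRKY69, WRKY19, WRKY53 and WRKY2 overlap another annotated gene on the opposite strand, and the sources used here do not give the strand of counting, so that their reads and those of the partner cannot be told apart.

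Libraries of 1 group had a Pearson correlation across genes of at least 0.971, apart from eBL at 30 min, where replicate 3 stood apart from replicates 1 and 2 (0.867 and 0.871, against 0.978 between replicates 1 and 2). Libraries of ZT, eBL and GA3 also stood apart from those of GV, IAA and control at the later times, with a median correlation of 0.925 between these sets at 30 min and 0.918 at 180 min, against 0.946 and 0.931 within the first set and 0.960 and 0.953 within the second. The labels name no batch, and the sets and the compounds cannot be told apart. At 30 and 180 min a second reference was therefore used for ZT, eBL and GA3, namely the mean of the other two. At 5 min the median correlation was 0.924 within the first set, 0.934 between the sets and 0.960 within the second. ZT, eBL and GA3 were thus no closer to each other than to the second set at 5 min, and no second reference was used. Preparation and compound cannot be told apart at 5 min either. The correlations within the first set leave out eBL 30 min replicate 3. Shoot marker genes summed to between 9290 and 22880 FPKM and root marker genes to between 816 and 3434 FPKM, so both organs were present in all libraries. Seed marker genes, which encode storage proteins and oleosins (oil-body proteins), summed to between 1.61 and 32.8 FPKM, with AT2S1 at 0 in all control libraries of 30 min. In whole seedlings, fewer cells of a type and less RNA per cell cannot be told apart.

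A gene was called when limma's test on log2(FPKM + 1), fitted over all 10622 genes and 54 libraries, gave a Benjamini-Hochberg adjusted p under 0.05. Fold changes below are differences on this log2 scale, compound minus control of the same time, with their standard error (SE), and this scale understates changes of genes near the floor. The 5 compounds share the control libraries of each time. Over 15 comparisons and 32 members, 480 tests gave 119 calls higher (24.8%) and 37 lower (7.71%) than control, beside 12.8% and 11.5% of the tests of all genes. Higher calls numbered 33 at 5 min, 47 at 30 min and 39 at 180 min, or 20.6%, 29.4% and 24.4% of the members' tests, beside 12%, 13% and 13.5% for all genes. Lower calls numbered 11, 6 and 20, or 6.88%, 3.75% and 12.5%, beside 5.71%, 12.6% and 16%. Of the members, 14 were called higher only, 15 in both directions and 1, WRKY32, lower only.

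**Figure D1:**
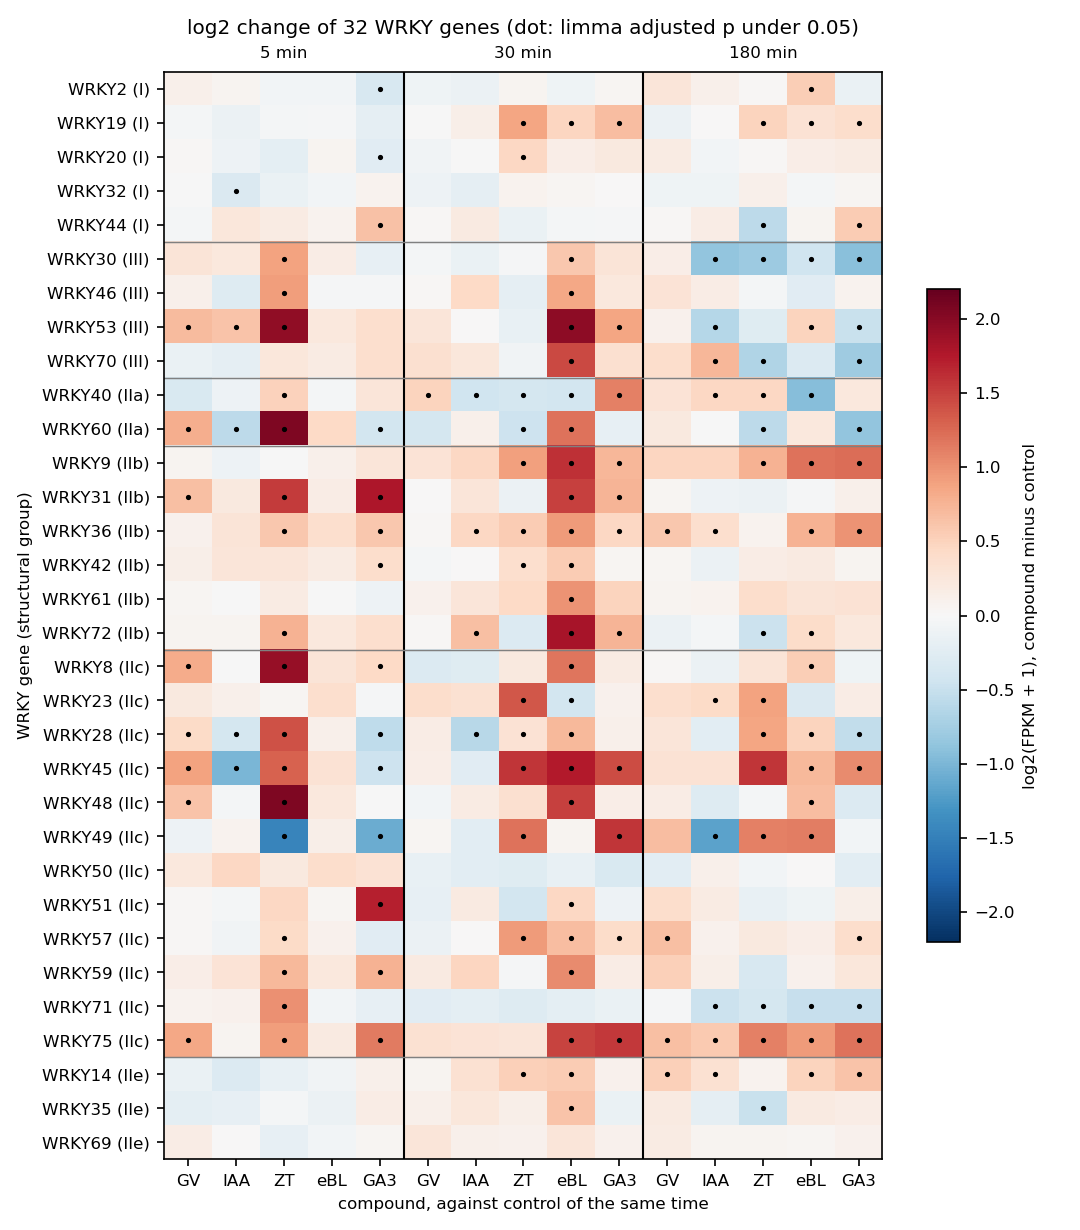
Differences in log2(FPKM + 1), compound minus control of the same time, of the 32 WRKY genes (rows, by structural group) for 5 compounds at 3 times (columns), with a dot where limma's adjusted p was under 0.05. ZT at 5 min and eBL at 30 min hold the most dots, 17 and 24 of 32.

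Among the 5 compounds, ZT moved the most WRKY genes at 5 min. They rose in 16 of 32 cases and fell in 1, while 19.5% of all genes tested rose and 8.02% fell (27.5% in either direction). Without WRKY71 and the other members that reached the floor in 1 group, 15 of 29 rose and 1 fell. The median difference was 0.44 over the members and 0.07 over all genes. Of the described members, both of group IIa moved, 3 of 4 of group III, and 9 of 12 of group IIc, 8 of them upward. In group IIb 3 of 6 moved, all upward, whereas none of 5 of group I and none of 3 of group IIe was called. Under quantile normalization, which lowered the median of all genes to -0.06, 13 members rose and 2 fell.

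WRKY60, which like its relative WRKY40 acts in basal defence and abscisic acid responses, had 21.8, 27.03 and 24.4 FPKM with ZT at 5 min, against 5.36, 5.21 and 4.76 FPKM in control. All ZT values lay far above the control values, a difference of 2.05 (SE 0.14, limma adjusted p = 1.38e-15). WRKY48, a repressor of basal defence, had 18.2, 19.9 and 16.9 FPKM with ZT and 3.19, 3.71 and 4.17 FPKM in control. Its difference was 2.05 (SE 0.16, limma adjusted p = 2.32e-14), with no overlap between groups. WRKY53, a regulator that advances leaf senescence, had 9.596, 9.19 and 8.42 FPKM with ZT and 1.68, 1.203 and 1.98 FPKM in control. Its difference of 1.95 had an SE of 0.17 (limma adjusted p = 2.27e-12). WRKY8, which acts in salt tolerance and defence, averaged 3.96 ± 0.568 FPKM with ZT and 0.309 ± 0.0206 FPKM in control (SD, n = 3 each), a difference of 1.91 from a control level of few reads.

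The same 5 min of ZT also raised WRKY28, an activator of the salicylate synthesis gene ICS1, to 16.1 ± 1.08 FPKM, against 5.48 ± 0.600 FPKM in control (SD, n = 3 each), and WRKY45, an activator of a phosphate transporter gene, to 26.9 ± 0.381 FPKM, against 10.3 ± 0.327 FPKM in control. WRKY45 with ZT at 5 min was the highest group mean of any described member. WRKY31, WRKY71, WRKY75, WRKY46, WRKY30, WRKY72, WRKY59, WRKY36, WRKY40 and WRKY57 rose by between 0.43 and 1.54, of which WRKY59 and WRKY57 passed least firmly, with a highest limma adjusted p of 0.187 and 0.157 when 1 library was left out. WRKY49, a group IIc gene, went the opposite way, with 3.39, 3.60 and 4.83 FPKM with ZT and 12.1, 11.6 and 13.9 FPKM in control. Its difference of -1.46 (SE 0.27, limma adjusted p = 3.25e-05) was the only fall among the members at ZT 5 min.

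**Figure D2:**
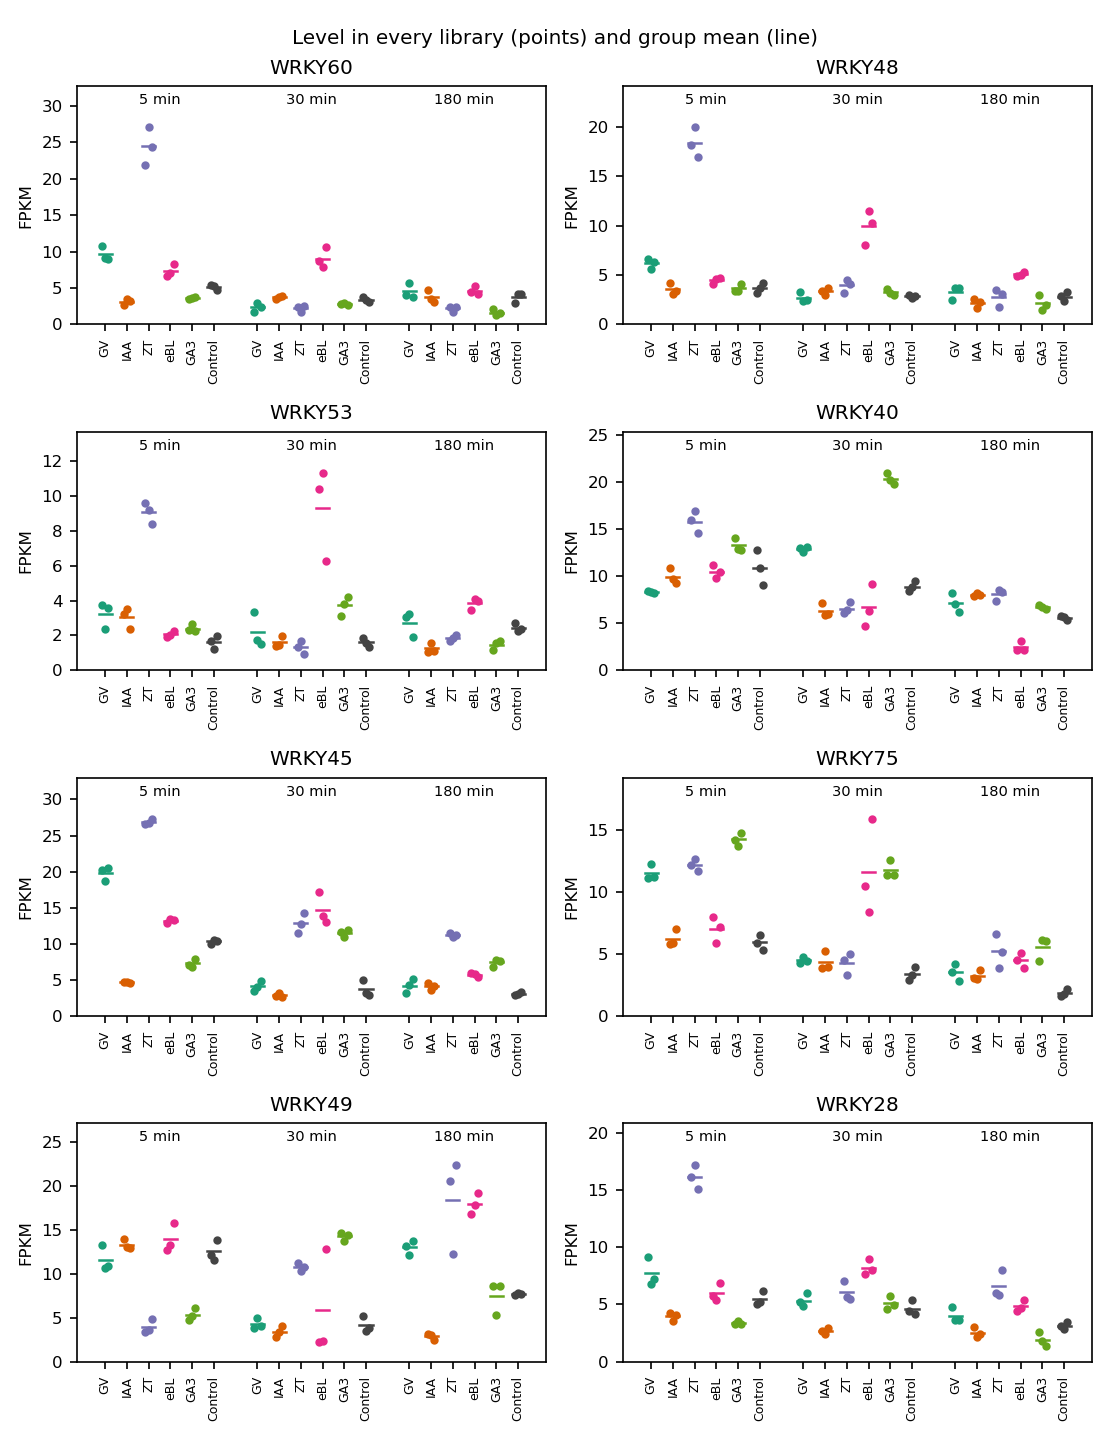
FPKM of 8 WRKY genes in every library (points) and the group mean (line), for 5 compounds and control at 5, 30 and 180 min, with a linear axis from 0 in each panel. WRKY60 and WRKY48 peak with ZT at 5 min (24.4 and 18.35 FPKM), WRKY53 with eBL at 30 min (9.34 FPKM) beside ZT at 5 min (9.07 FPKM), and WRKY40 with GA3 at 30 min (20.3 FPKM).

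Other genes of the same pathway, of which the table tested 5 of 11 listed genes of upstream signalling, 3 of 5 WRKY partners, 6 of 10 salicylate genes, 6 of 7 genes induced in defence and 2 of 8 touch genes, were compared too. Of the 5 genes of signalling upstream of WRKY proteins, 4 rose and none fell, among them RBOHD, the oxidase of the defence oxidative burst, with 12.1 FPKM under ZT and 4.11 FPKM in control, and FLS2, the flagellin receptor, with 18.1 and 9.43 FPKM. Of 6 tested genes induced in defence, 5 rose and none fell. SIRK, also known as FRK1 and a target of WRKY proteins, had 18.9 FPKM with ZT and 3.97 FPKM in control, a difference with a limma adjusted p of 7.99e-17. CYP71A12, which makes indolic defence compounds, had 12.6 FPKM with ZT and 0.443 FPKM in control. Of 6 tested salicylate genes 4 rose, among them the regulator CBP60G at 12.45 FPKM with ZT and 4.68 FPKM in control, and of 3 tested WRKY partners 1, VQ22, rose. Both measured touch and handling genes rose as well, CML37 by 1.49 and ZAT10 by 1.07. Root markers fell in 3 of 5 and rose in none, although their sum was higher, at 910 to 928 FPKM with ZT and 816 to 856 FPKM in control. Shoot markers and seed markers each fell in 3 of 5 and rose in 1. The part of handling or organ share in the WRKY result was not tested.

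GV at 5 min raised 8 of 32 WRKY genes and lowered none, while 7.82% of all genes rose and 3.16% fell (11% in either direction). WRKY45 had 20.2, 18.7 and 20.5 FPKM with GV and 9.95, 10.6 and 10.4 FPKM in control, a difference of 0.88 (SE 0.11, limma adjusted p = 1.68e-07). WRKY75, known for phosphate starvation responses, root hairs and senescence, had 11.2, 12.2 and 11.2 FPKM with GV and 5.91, 6.56 and 5.33 FPKM in control, a difference of 0.86 (SE 0.15, limma adjusted p = 6.51e-05). All GV values of both genes lay above all control values. WRKY60 averaged 9.62 ± 0.994 FPKM with GV and 5.11 ± 0.312 FPKM in control (SD, n = 3 each), a difference of 0.79. WRKY53 averaged 3.24 ± 0.756 FPKM with GV and 1.62 ± 0.393 FPKM in control (SD, n = 3 each). Its difference of 0.69 (limma adjusted p = 0.00488) did not pass without control replicate 2, where the adjusted p was 0.0555. WRKY8, WRKY31, WRKY48 and WRKY28 rose by 0.82, 0.65, 0.62 and 0.42, the last with a highest limma adjusted p of 0.186 when 1 library was left out. GV and ZT share the control libraries of 5 min and were given at 10 µM and 1 µM. The differences of WRKY45, WRKY75, WRKY60 and WRKY53 were 0.88, 0.86, 0.79 and 0.69 with GV and 1.30, 0.93, 2.05 and 1.95 with ZT. Under quantile normalization 8 members rose and 1 fell with GV. Among the other genes, CYP71A12 had 7.79 FPKM with GV and 0.443 FPKM in control, RBOHD 8.71 and 4.11 FPKM, and SIRK 7.71 and 3.97 FPKM, and all 3 rose. In all, 3 of 6 genes of the defence-induced list rose with GV, 1 of 5 of upstream signalling, and none of the tested salicylate genes or WRKY partners, with no falls in these lists. Both touch genes rose with GV too, CML37 by 1.05 and ZAT10 by 0.60. Root markers fell in 1 of 5, seed markers in 2 of 5 and shoot markers in none. The part of handling or organ share was not tested.

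IAA at 5 min lowered 4 WRKY genes and raised 1, while 5.29% of all genes fell and 6.86% rose (12.2% in either direction). WRKY45 had 4.69, 4.67 and 4.62 FPKM with IAA and 9.95, 10.6 and 10.4 FPKM in control. The difference was -0.999 (SE 0.11, limma adjusted p = 8.27e-09), against the same control libraries from which GV differed by 0.88 and ZT by 1.30. WRKY60 had 2.72, 3.46 and 3.17 FPKM with IAA and 5.36, 5.21 and 4.76 FPKM in control, a difference of -0.57 (SE 0.14, limma adjusted p = 0.00404). WRKY28 fell by 0.38 and WRKY32, a group I gene of light-regulated growth, fell by 0.31, while WRKY53 rose by 0.62 to 3.03 ± 0.587 FPKM with IAA, against 1.62 ± 0.393 FPKM in control (SD, n = 3 each). These last 3 calls were lost when single libraries were left out: the number of called members was 3 without control replicate 1, control replicate 3, IAA replicate 1 or IAA replicate 3, and 2 without control replicate 2 or IAA replicate 2, with adjusted p up to 0.196 for WRKY28, 0.223 for WRKY32 and 0.0997 for WRKY53. Of the defence-induced genes 1 of 6 fell, SIRK with 1.74 FPKM under IAA and 3.97 FPKM in control. PR1 fell among 6 salicylate genes and VQ22 among 3 WRKY partners, and no upstream or touch gene was called. Seed markers fell in 3 of 5, with sums of 1.61 to 3.12 FPKM with IAA and 20.97 to 22.63 FPKM in control. The root marker PYK10 rose, with root sums of 1344 to 1449 FPKM with IAA and 816 to 856 FPKM in control, and 2 of 5 shoot markers rose. The part of organ share was not tested.

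GA3 at 5 min moved members in both directions, with 8 higher and 6 lower than control, beside 23.7% and 11% of all genes (34.7% in either direction). The share of members called higher was thus close to that of all genes, and the balance of rises and falls changed with the normalization given below. Without GA3 replicate 1, 9 members were called. Under quantile normalization, which lowered the median of all genes by over 0.1 to -0.05, against 0.08 as deposited, 5 members rose and 9 fell. WRKY31, a group IIb gene, had 3.07, 2.55 and 2.94 FPKM with GA3 and 0.206, 0.139 and 0.0241 FPKM in control, a difference of 1.78 (SE 0.13, limma adjusted p = 2.85e-15). WRKY51, which with WRKY50 restrains jasmonate responses, had 3.25, 3.42 and 3.27 FPKM with GA3 and 0.580, 0.321 and 0.111 FPKM in control, a difference of 1.70 (SE 0.18, limma adjusted p = 2.68e-10). Both genes had few reads in control and no overlap between groups. WRKY75 averaged 14.2 ± 0.559 FPKM with GA3 and 5.94 ± 0.614 FPKM in control (SD, n = 3 each), a difference of 1.14, and WRKY36, a repressor of the light regulator gene HY5, rose by 0.60.

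The falls with GA3 at 5 min included WRKY28, WRKY45, WRKY60 and WRKY49. WRKY28 had 3.31, 3.51 and 3.33 FPKM with GA3 and 5.05, 5.22 and 6.16 FPKM in control, a difference of -0.56 (SE 0.13, limma adjusted p = 0.000554). WRKY45 fell by 0.45 to 7.29 ± 0.588 FPKM with GA3, against 10.3 ± 0.327 FPKM in control (SD, n = 3 each), and WRKY60 fell by 0.40, a call lost without control replicate 1 or 2 or GA3 replicate 1 or 2 (adjusted p up to 0.0733). WRKY49 had 4.69, 5.18 and 6.15 FPKM with GA3 and 12.1, 11.6 and 13.9 FPKM in control, a difference of -1.10. Of the defence-induced genes 4 of 6 rose and SIRK fell, CYP71A12 being at 15.7 FPKM with GA3 and 0.443 FPKM in control. Of 5 upstream genes 1 rose, RBOHD with 11.75 FPKM under GA3 and 4.11 FPKM in control, and 1 fell, FLS2 with 7.39 and 9.43 FPKM. Of 6 salicylate genes EDS16, the salicylate synthesis gene also known as ICS1, rose to 10.6 FPKM with GA3, against 5.64 FPKM in control, and PR1 fell to 2.41 FPKM, against 4.23 FPKM. No WRKY partner was called. Root markers rose in 4 of 5 and fell in 1, with summed levels of 2030 to 2059 FPKM with GA3 and 816 to 856 FPKM in control, shoot markers fell in 3 of 5 and rose in none, and both touch genes rose. Whether organ share or handling bears on the GA3 result was not tested.

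With eBL at 5 min limma called no WRKY gene, beside 2.27% of all genes higher and 1.07% lower (3.34% in either direction). At an unadjusted p under 0.05 there were 5 of 32, all of them higher with eBL. WRKY60, with 6.65, 7.01 and 8.28 FPKM under eBL and 5.36, 5.21 and 4.76 FPKM in control, had the lowest limma adjusted p, 0.0786. Fitting only the compared groups called 2 members, and quantile normalization or leaving out eBL 30 min replicate 3 called 1. Leaving out any control or eBL library of 5 min still called 0.

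**Figure D3:**
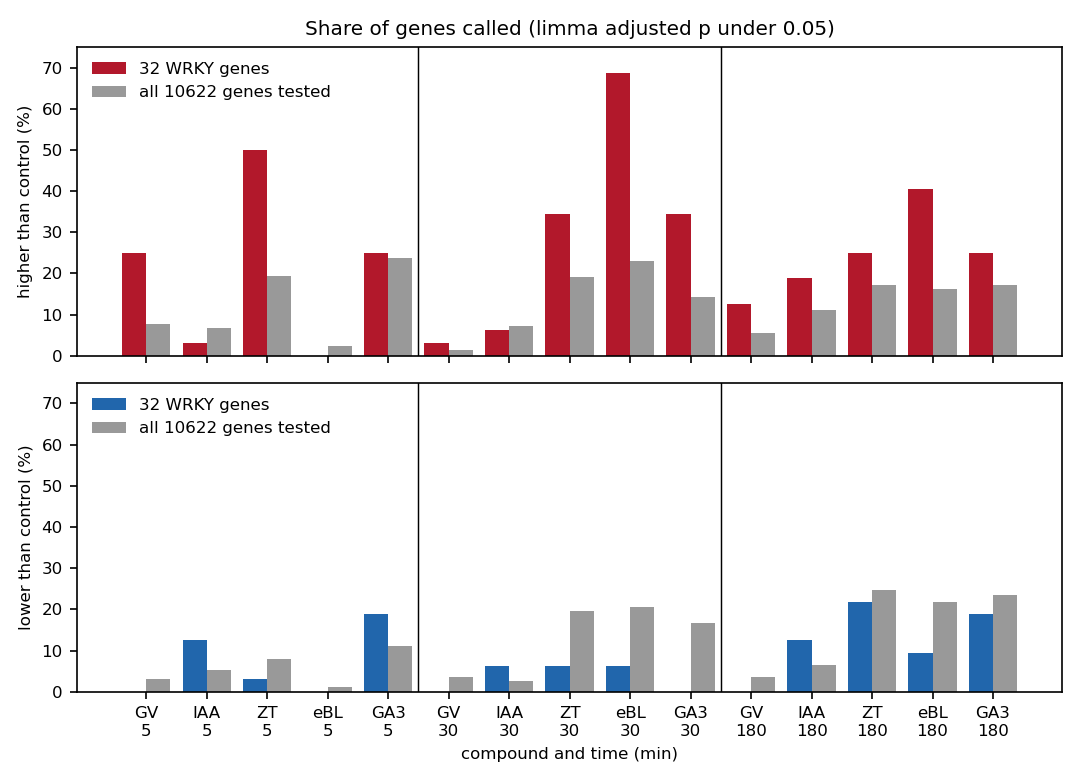
Share of the 32 WRKY genes (coloured bars) and of all 10622 genes tested (grey bars) called higher (top) or lower (bottom) than control of the same time, in percent, for 5 compounds at 3 times. At eBL 30 min 68.8% of the WRKY genes were higher, beside 23.1% of all genes.

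At 30 min eBL moved the most members. WRKY genes rose in 22 of 32 and fell in 2, beside 23.1% and 20.6% of all genes (43.6% in either direction), with a median difference of 0.66 over the members and -0.01 over all genes. Among the 29 members that reached the floor in at least 2 groups, 20 rose and 2 fell. Because replicate 3 stood apart, each value was also computed without it. Then 20 members rose and 3 fell, beside 21.2% of all genes higher and 16.5% lower, and the median over the members was 0.64. Replicate 3 was the highest of the eBL libraries in 15 members and the lowest in 12, and it lay more than 1.5-fold outside the range of the other two in 15. Fitting only the eBL and control libraries of 30 min called 13 members, all higher. The share of all genes under that fit is not given here, so this count has no background beside it. With the mean of ZT and GA3 in place of control, 19 members were higher and 4 lower, beside 24.1% and 17.8% of all genes.

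WRKY53 had 10.4, 11.3 and 6.26 FPKM with eBL at 30 min and 1.88, 1.56 and 1.33 FPKM in control. Its difference was 1.96 (SE 0.17, limma adjusted p = 1.92e-12), and 2.201 without replicate 3. WRKY45 had 17.2, 13.9 and 12.99 FPKM with eBL and 4.99, 3.21 and 2.93 FPKM in control, a difference of 1.75 (SE 0.11, limma adjusted p = 2.2e-16), and 1.83 without replicate 3. WRKY72, a gene of basal defence, had 8.32, 9.40 and 15.5 FPKM with eBL and 2.33, 2.203 and 2.47 FPKM in control, differing by 1.81, and by 1.56 without replicate 3. WRKY9, a regulator of suberin in roots, had 3.28, 4.56 and 10.9 FPKM with eBL and 1.54, 1.10 and 0.908 FPKM in control. Its difference of 1.60 became 1.17 without replicate 3 (limma adjusted p = 6.97e-08). In all 4 genes every eBL value lay above every control value. The differences against the mean of ZT and GA3 were 1.62 for WRKY53, 1.59 for WRKY72 and 0.79 for WRKY9, but 0.25 for WRKY45 (SE 0.10, limma adjusted p = 0.0395).

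All 4 described members of group III rose with eBL at 30 min. WRKY70, which favours salicylate over jasmonate responses, had 5.32, 4.42 and 4.22 FPKM with eBL and 1.25, 0.806 and 1.11 FPKM in control, a difference of 1.46 (SE 0.15, limma adjusted p = 2.48e-10). WRKY46 and WRKY30 rose by 0.85 and 0.60. These 3 genes were also higher than the mean of ZT and GA3, by 1.32 for WRKY70, 0.83 for WRKY46 and 0.46 for WRKY30. All 6 described members of group IIb rose, of which WRKY42, a regulator of phosphate supply, reached the floor only through replicate 3. WRKY40 fell by 0.40, with overlapping groups, and by 0.62 without replicate 3, while the highest limma adjusted p with another single library left out was 0.144. WRKY49 had 2.25 and 2.39 FPKM in eBL replicates 1 and 2 and 12.8 FPKM in replicate 3, against 5.24, 3.44 and 3.87 FPKM in control. It was not called with replicate 3, and it was lower by 0.63 without it (limma adjusted p = 0.00248). WRKY50 likewise had 4.19 and 3.71 FPKM in replicates 1 and 2 and 10.9 FPKM in replicate 3, against 6.12, 5.62 and 7.77 FPKM in control, and was called lower by 0.59 only without replicate 3, whereas WRKY59 and WRKY35 lost their calls without it and so did WRKY23, which had been lower.

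**Figure D4:**
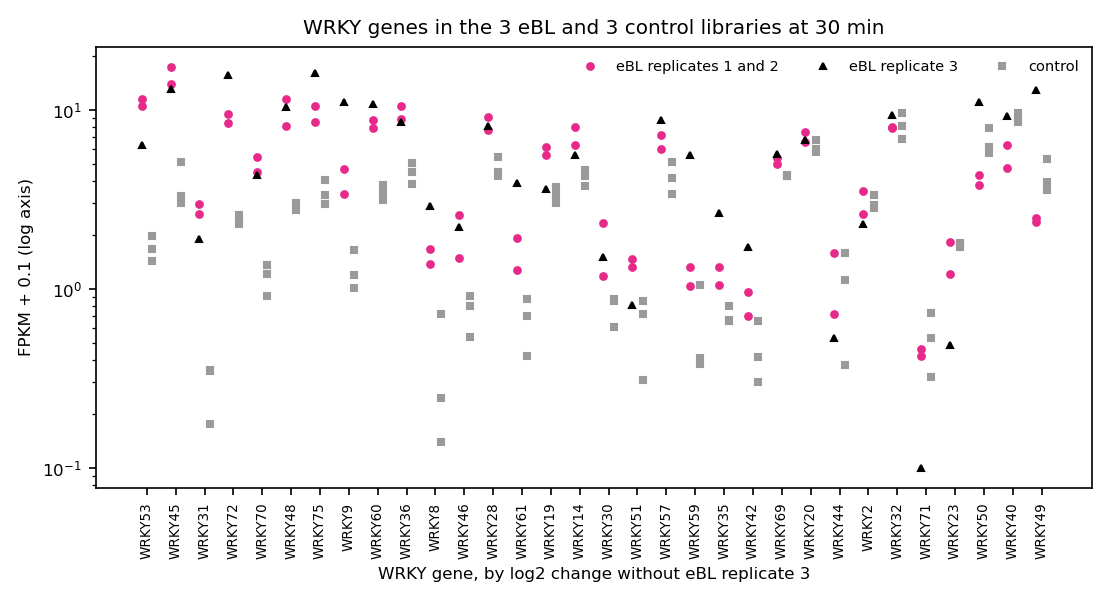
FPKM + 0.1 on a log axis of the 32 WRKY genes in the eBL libraries of 30 min (circles, replicates 1 and 2; triangles, replicate 3) and the 3 control libraries (squares), ordered by the difference without replicate 3. From WRKY53 to WRKY60 on the left all eBL points lie above the control points, while replicate 3 lies far above replicates 1 and 2 in WRKY49 (12.8 against 2.25 and 2.39 FPKM) and WRKY59.

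The defence-induced list rose in all 6 tested genes with eBL at 30 min, with a median difference of 1.45. CYP71A12 had 29.04 FPKM with eBL and 0.441 FPKM in control, and SIRK 6.53 and 0.879 FPKM. Salicylate genes rose in 5 of 6, with CBP60G at 11.8 FPKM under eBL and 2.66 FPKM in control. Upstream signalling genes rose in 2 of 5 and fell in 2, VQ22 rose among 3 WRKY partners, and of the touch genes CML37 rose by 1.30 while ZAT10 had 12.01 FPKM with eBL and 11.85 FPKM in control. Root markers summed to 1594, 1522 and 3434 FPKM in eBL replicates 1, 2 and 3, against 1169 to 1211 FPKM in control, and shoot markers to 13860, 12703 and 18045 FPKM, against 18362 to 20153 FPKM. The part of organ share in these changes was not tested.

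ZT at 30 min raised 11 members and lowered 2, beside 19.1% and 19.5% of all genes (38.6% in either direction). WRKY45 had 11.4, 12.8 and 14.3 FPKM with ZT and 4.99, 3.21 and 2.93 FPKM in control, a difference of 1.57 (SE 0.11, limma adjusted p = 9.81e-15). WRKY23, an auxin-responsive gene of root patterning, had 5.82, 6.14 and 5.56 FPKM with ZT and 1.70, 1.61 and 1.63 FPKM in control, a difference of 1.37 (SE 0.15, limma adjusted p = 6.56e-10). WRKY49 was higher, by 1.197, and WRKY57, a gene of drought tolerance, rose by 0.94. WRKY60 had 2.45, 1.68 and 2.496 FPKM with ZT and 3.72, 3.34 and 3.04 FPKM in control, a difference of -0.45 that was not called without ZT replicate 2 (adjusted p = 0.101), and WRKY40 fell by 0.39. Against the mean of eBL and GA3 the pattern was another one: 4 members were higher and 13 lower with ZT, beside 14.7% and 16.9% of all genes. WRKY23 remained higher by 1.53 there (limma adjusted p = 6.86e-13), while WRKY45 differed by -0.02 (SE 0.10) and WRKY49 by 0.38 (limma adjusted p = 0.213). Salicylate genes rose in 2 of 6 and fell in 1, the defence-induced genes rose in 3 of 6, MKS1 fell among the partners, MKK5 among upstream genes and ZAT10 of the touch genes, and all 5 shoot markers fell.

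GA3 at 30 min raised 11 members and lowered none, beside 14.4% and 16.8% of all genes (31.2% in either direction). WRKY40, the group IIa repressor, had 20.9, 20.2 and 19.7 FPKM with GA3 and 8.42, 8.78 and 9.43 FPKM in control. This difference of 1.11 (SE 0.12, limma adjusted p = 9.12e-10) was 1.51 against the mean of ZT and eBL. WRKY49 had 14.7, 13.7 and 14.4 FPKM with GA3 and 5.24, 3.44 and 3.87 FPKM in control, a difference of 1.57 (SE 0.27, limma adjusted p = 1.36e-05). WRKY75 averaged 11.8 ± 0.700 FPKM with GA3 and 3.37 ± 0.551 FPKM in control (SD, n = 3 each), differing by 1.55, and WRKY45 averaged 11.5 ± 0.449 FPKM with GA3 and 3.71 ± 1.11 FPKM in control, differing by 1.43. WRKY53, WRKY31, WRKY72, WRKY9, WRKY19, WRKY36 and WRKY57 rose by between 0.40 and 0.86. None of these was called higher than the mean of ZT and eBL. WRKY9 was lower than that mean by 0.52 (limma adjusted p = 0.023) and WRKY57 by 0.41 (limma adjusted p = 0.0247). Against the mean of ZT and eBL 3 members were higher and 10 lower, beside 6.87% and 12.3% of all genes, and WRKY45 differed by -0.23 (SE 0.10, limma adjusted p = 0.0947). The defence-induced genes rose in 3 of 6 with GA3, SIRK being at 3.77 FPKM and at 0.879 FPKM in control, CML37 rose and all 5 shoot markers fell.

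GV and IAA moved few members at 30 min. With GV limma called WRKY40 alone of the 32, beside 1.51% of all genes higher and 3.48% lower (4.99% in either direction): it had 12.96, 12.55 and 13.06 FPKM with GV and 8.42, 8.78 and 9.43 FPKM in control, a difference of 0.49 (SE 0.12, limma adjusted p = 0.00749). Without GV replicate 2, or without eBL 30 min replicate 3, 2 members were called. IAA raised 2 members and lowered 2, beside 7.16% and 2.66% of all genes (9.83% in either direction). WRKY28 had 2.70, 2.44 and 2.94 FPKM with IAA and 4.39, 5.37 and 4.17 FPKM in control, a difference of -0.61 (SE 0.13, limma adjusted p = 0.000864). WRKY40 had 7.09, 5.86 and 5.97 FPKM with IAA and 8.42, 8.78 and 9.43 FPKM in control, a difference of -0.44 that was not called without control replicate 3, IAA replicate 2 or IAA replicate 3, with adjusted p up to 0.0629. WRKY72 rose by 0.67 and WRKY36 by 0.46 with IAA, the call of WRKY36 being lost without control replicate 2 or 3 or IAA replicate 1 or 3, with adjusted p up to 0.148. Without control replicate 3, 2 members were called with IAA, and 6 without eBL 30 min replicate 3. WRKY19, which encodes an immune receptor fused to WRKY and kinase domains, was higher by 0.87 with ZT, 0.48 with eBL and 0.67 with GA3 at 30 min, against the same control libraries. Relative to the mean of the other two of these compounds it was higher with ZT by 0.29, lower with eBL by 0.29 (limma adjusted p = 0.0126) and not called with GA3, at 0.0025.

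**Figure D5:**
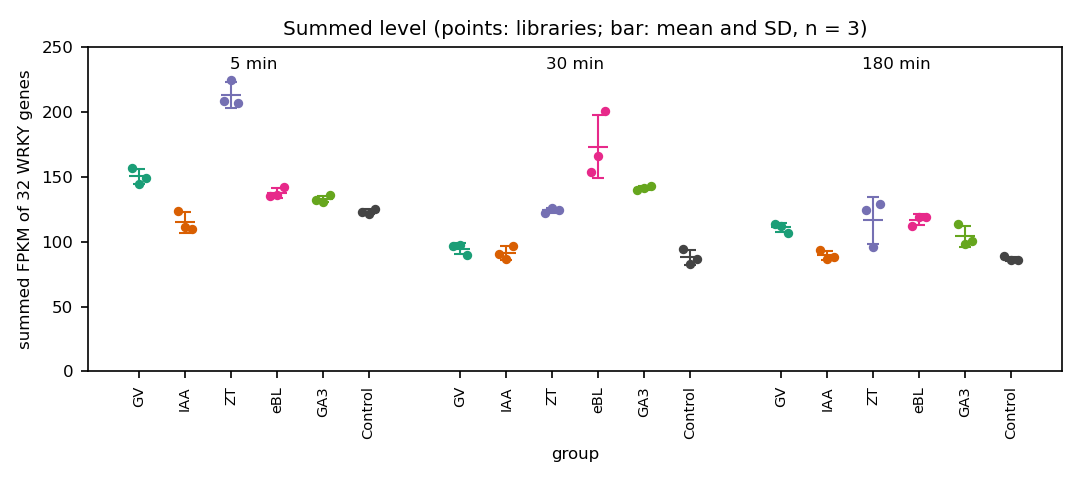
Summed FPKM of the 32 WRKY genes in every library (points) with the mean and SD of 3 libraries (bars), for 5 compounds and control at 5, 30 and 180 min. ZT at 5 min (213 FPKM) and eBL at 30 min (173 FPKM) lie highest, and control lies at 123, 88.1 and 86.8 FPKM at the 3 times.

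At 180 min WRKY75 was called higher with all 5 compounds. It had 3.57, 4.16 and 2.82 FPKM with GV, 3.07, 2.96 and 3.67 FPKM with IAA, 6.60, 3.88 and 5.17 FPKM with ZT, 4.48, 5.04 and 3.90 FPKM with eBL and 4.41, 6.15 and 6.05 FPKM with GA3, against 1.64, 1.75 and 2.14 FPKM in control. All 15 treated values lay above the shared control values, and the differences were 0.66, 0.58, 1.11, 0.94 and 1.19. Against the mean of the other two, WRKY75 differed by 0.04 with ZT, -0.21 with eBL and 0.17 with GA3, none of them called.

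eBL at 180 min raised 13 members and lowered 3, beside 16.2% and 21.8% of all genes (38% in either direction). With the mean of ZT and GA3 in place of control, 9 were higher and 3 lower, beside 12% and 10.2% of all genes. WRKY40 had 2.11, 3.05 and 2.17 FPKM with eBL and 5.74, 5.59 and 5.31 FPKM in control. This difference of -0.94 (SE 0.12, limma adjusted p = 2.83e-08) was -1.29 against the mean of ZT and GA3. WRKY9 had 2.93, 2.84 and 3.08 FPKM with eBL and 0.579, 0.857 and 0.765 FPKM in control, a difference of 1.19 (SE 0.19, limma adjusted p = 3.56e-06). WRKY49 averaged 17.9 ± 1.22 FPKM with eBL and 7.71 ± 0.152 FPKM in control (SD, n = 3 each), and WRKY36 rose by 0.77. Against the mean of ZT and GA3 these 3 genes were not called, with differences of 0.20 for WRKY9, 0.59 for WRKY49 and 0.24 for WRKY36. ZAT10 fell by 1.42 with eBL, salicylate genes rose in 2 of 6, the defence-induced genes in 1 of 6, root markers in 4 of 5, and shoot markers fell in 3 of 5. The summed root markers were nevertheless lower, at 1347 to 1349 FPKM with eBL and 1442 to 1445 FPKM in control. The part of organ share was not tested.

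GA3 at 180 min raised 8 members and lowered 6, beside 17.3% and 23.6% of all genes (41% in either direction). Against the mean of ZT and eBL, 4 were higher and 7 lower, beside 14.6% and 13.4% of all genes. WRKY9 had 3.62, 2.68 and 2.88 FPKM with GA3 and 0.579, 0.857 and 0.765 FPKM in control, a difference of 1.22 (SE 0.19, limma adjusted p = 1.86e-06). WRKY36 averaged 8.55 ± 1.33 FPKM with GA3 and 3.83 ± 0.670 FPKM in control (SD, n = 3 each), differing by 0.98, and WRKY45 rose by 1.04. Against the mean of ZT and eBL, WRKY36 was higher by 0.56, while WRKY9 differed by 0.25 and WRKY45 by -0.11, neither of them called. WRKY60 had 2.06, 1.24 and 1.56 FPKM with GA3 and 2.90, 4.21 and 4.23 FPKM in control, a difference of -0.87 (SE 0.14, limma adjusted p = 3.56e-06). Of the described members of group III, 3 of 4 fell: WRKY30, a gene of oxidative stress, by 0.92, WRKY70 by 0.77 and WRKY53 by 0.49. WRKY53 was not called without control replicate 1 or GA3 replicate 1 (adjusted p up to 0.107). From the mean of ZT and eBL, WRKY30 differed by -0.30 (limma adjusted p = 0.0648) and WRKY70 by -0.29 (limma adjusted p = 0.099), neither called, while WRKY53 was lower by 0.60. WRKY28 fell by 0.54. Of 5 upstream genes RBOHD rose, with 26.8 FPKM under GA3 and 5.21 FPKM in control, and MKK4, MKK5 and WAK1 fell by 0.40, 0.47 and 0.63. Of 6 salicylate genes PR1 rose by 1.08, and the regulators CBP60G and SARD1 fell by 0.39 and 0.37. Among the partners MKS1 rose and SIB1 fell, and of the touch genes CML37 rose and ZAT10 fell. The defence-induced genes fell in 3 of 6, shoot markers fell in 3 of 5, all 5 root markers rose with sums of 2080 to 2379 FPKM, against 1442 to 1445 FPKM in control, and the part of organ share was not tested.

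ZT at 180 min raised 8 members and lowered 7, beside 17.1% and 24.7% of all genes (41.7% in either direction). Under quantile normalization 10 rose and 4 fell. Against the mean of eBL and GA3, 5 were higher and 6 lower, beside 17.9% and 20.4% of all genes. WRKY45 had 11.4, 10.99 and 11.2 FPKM with ZT and 2.89, 3.06 and 3.37 FPKM in control, a difference of 1.57 (SE 0.11, limma adjusted p = 5.03e-15), and of 0.70 against the mean of eBL and GA3. WRKY49 had 20.6, 12.3 and 22.4 FPKM with ZT and 7.55, 7.85 and 7.72 FPKM in control, a difference of 1.11. WRKY23 averaged 4.15 ± 0.829 FPKM with ZT and 1.77 ± 0.252 FPKM in control (SD, n = 3 each), and was higher by 0.89 against control and by 0.96 against the mean of the other two. WRKY60 fell by 0.58, and differed by -0.26 from the mean of eBL and GA3 (limma adjusted p = 0.0892). WRKY70 fell by 0.66, and differed by -0.12 from that mean (limma adjusted p = 0.515). WRKY72 fell by 0.47, a call lost without control replicate 1 or 2 or ZT replicate 2 (adjusted p up to 0.126), and was lower by 0.79 against the mean. WRKY44, the trichome gene TTG2, fell by 0.58 with ZT, whereas it rose by 0.56 with GA3. WRKY28 and WRKY45 were the members that rose with ZT at all 3 times, WRKY28 at 30 min with a highest adjusted p of 0.231 when 1 library was left out, and WRKY36 and WRKY75 those that rose with GA3 at all 3. NHL10 rose and ACS6 fell among the defence-induced genes, 3 of 5 upstream genes fell and FLS2 rose, and shoot markers fell in 2 of 5.

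IAA at 180 min raised 6 members and lowered 4, beside 11.2% and 6.48% of all genes (17.7% in either direction), and 3 and 4 under quantile normalization. WRKY49 had 3.14, 3.02 and 2.48 FPKM with IAA and 7.55, 7.85 and 7.72 FPKM in control, a difference of -1.17 (SE 0.27, limma adjusted p = 0.00108), while the same control libraries gave 1.11 for ZT and 1.12 for eBL. WRKY70 had 3.41, 3.89 and 3.25 FPKM with IAA and 1.53, 1.64 and 1.999 FPKM in control, a difference of 0.73 (SE 0.15, limma adjusted p = 0.000383). WRKY53 averaged 1.25 ± 0.266 FPKM with IAA and 2.45 ± 0.242 FPKM in control (SD, n = 3 each), differing by -0.62. WRKY40 rose by 0.46, and WRKY23 by 0.42 with a limma adjusted p of 0.0416 that did not hold under a pseudocount of 0.1, without the floor, under quantile normalization or without 5 of its 6 libraries in turn. WRKY30 had 0.296, 0.326 and 0.330 FPKM with IAA and 1.58, 1.32 and 1.31 FPKM in control. All 5 shoot markers fell with IAA, with sums of 9290 to 9803 FPKM, against 16200 to 17120 FPKM in control, whose part was not tested. Against the shared control libraries of 180 min, WRKY30 differed by -0.86 with IAA, -0.81 with ZT, -0.43 with eBL and -0.92 with GA3. WRKY71, a regulator of shoot branching and flowering that lay under 1 FPKM at 180 min, differed by -0.47, -0.39, -0.50 and -0.51 with the same compounds. When 1 library was left out, the highest adjusted p was 0.161 for WRKY71 with IAA, 0.163 with ZT and 0.0520 with eBL, and 0.0649 for WRKY30 with eBL. From the mean of the other two of ZT, eBL and GA3, WRKY30 differed by -0.13 with ZT (limma adjusted p = 0.428) and -0.30 with GA3 (limma adjusted p = 0.0648), and with eBL it was higher by 0.43 (limma adjusted p = 0.0077), the opposite direction to that against control. WRKY71 differed by 0.12, -0.05 and -0.07 with ZT, eBL and GA3 there, none of them called.

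GV at 180 min raised 4 members and lowered none, beside 5.59% and 3.58% of all genes (9.17% in either direction), and 8 were higher without eBL 30 min replicate 3, which enters the shared estimate of spread. WRKY57 had 6.74, 8.38 and 6.35 FPKM with GV and 3.23, 4.86 and 4.42 FPKM in control, a difference of 0.66 (SE 0.16, limma adjusted p = 0.00299). WRKY36 had 6.32, 5.98 and 6.38 FPKM with GV and 3.92, 3.11 and 4.45 FPKM in control, a difference of 0.59 (SE 0.13, limma adjusted p = 0.00232). WRKY14, of group IIe, rose by 0.52. PR1, a marker of salicylate defence, had 10.2 FPKM with GV and 1.28 FPKM in control, the only salicylate gene of 6 that was called. RBOHD rose among upstream genes, and no defence-induced gene, WRKY partner or touch gene was called. Seed markers fell in 3 of 5, with sums of 5.77 to 8.39 FPKM with GV and 27.4 to 29.6 FPKM in control. Of the other markers, 1 of 5 root markers rose and 1 of 5 shoot markers fell. Root sums were 1762 to 1791 FPKM with GV and 1442 to 1445 FPKM in control, and the part of organ share was not tested.

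The control itself changed over time. In control seedlings 11 members were lower at 30 min than at 5 min and 1 was higher, beside 14.1% and 17.3% of all genes (31.4% in either direction). WRKY49 had 5.24, 3.44 and 3.87 FPKM at 30 min and 12.1, 11.6 and 13.9 FPKM at 5 min, a difference of -1.40 (SE 0.27, limma adjusted p = 7.38e-05). WRKY45 had 4.99, 3.21 and 2.93 FPKM at 30 min and 9.95, 10.6 and 10.4 FPKM at 5 min, differing by -1.29 (SE 0.11, limma adjusted p = 4.07e-12). WRKY9 fell by 0.78, while WRKY50 rose by 0.78 to 6.51 ± 1.12 FPKM at 30 min, against 3.35 ± 0.0560 FPKM at 5 min (SD, n = 3 each). Salicylate genes fell in 4 of 6 and the defence-induced genes in 2 of 6 over the same interval, SIRK to 0.879 FPKM at 30 min, against 3.97 FPKM at 5 min. At 180 min 2 members were higher and 3 lower than at 30 min, beside 13.4% and 9.08% of all genes (22.5% in either direction), and 3 in all were called without control replicate 2 of 30 min or of 180 min. WRKY49 rose by 0.76, a call kept only without control replicate 1 of 30 min among the 6 libraries left out in turn (adjusted p up to 0.129), and WRKY75, WRKY40 and WRKY28 fell by 0.62, 0.59 and 0.44, that of WRKY28 being lost without control replicate 2 of 30 min or of 180 min (adjusted p up to 0.0828). Since each compound is set against the control of its time, WRKY45 with GA3 stood at 7.29, 11.5 and 7.42 FPKM at 5, 30 and 180 min while the control stood at 10.3, 3.71 and 3.11 FPKM.

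Over all 15 comparisons WRKY28, WRKY36, WRKY45 and WRKY75 were called most often, in 10 each. WRKY36 and WRKY75 were higher in all 10, WRKY45 in 8 and WRKY28 in 6. WRKY50 and WRKY69 were called in none, with group means between 3.35 and 6.51 FPKM and between 4.16 and 5.96 FPKM. Summed over the 32 members, the level was 213.2 ± 9.84 FPKM with ZT at 5 min and 123.1 ± 1.74 FPKM in control (SD, n = 3 each), and 153.5, 165.8 and 200.4 FPKM in the eBL libraries of 30 min against 88.12 ± 5.75 FPKM in control. By structural group, 56.7% of the tests of group IIa were called, 36.7% of group IIc, 34.4% of group IIb, 33.3% of group III, 18.7% of group I and 17.8% of group IIe, beside 24.3% of the tests of all genes. The share of group IIa rests on 2 genes, and the comparisons of each time share their control libraries. Of group IIa's 17 calls 8 were higher and 9 lower, and of group IIb's 31 calls 30 were higher. The highest of the 18 group means fell in eBL at 30 min for 10 members and in ZT at 5 min for 8. The same count over all genes was not made, and the floor itself selects members by a high group mean. The count for eBL rests in part on replicate 3. WRKY59 had 0.935 and 1.22 FPKM in replicates 1 and 2 and 5.48 FPKM in replicate 3, against a mean of 1.57 FPKM with GA3 at 5 min. Within the family the spread differed widely: the highest group mean of WRKY32 was 1.37 times its lowest, that of WRKY69 1.43 times and that of WRKY20 1.497 times, against 15.1 times for WRKY60 and 9.31 times for WRKY45.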

How the data were processed

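Transcript levels were measured by RNA sequencing in 54 libraries of whole seedlings, 3 for each of 18 groups. The authors deposited 1 table of FPKM values with gene coordinates. The table's heading does not name the unit, which was identified from the values. Bowtie2 2.2.3 and the TAIR10 build are named, without their role, per the submitters' processing notes. Whole reads were recovered from the deposited FPKM and gene lengths for 100% of values within 0.05 reads. Of 24000 lines, 3 damaged ones were left out. Columns were tied to groups by name, and those of GV by elimination.

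Genes whose mean reached 1 FPKM in a group were tested with limma 3.58.1 (trend and robust options, R 4.3.3) on log2(FPKM + 1), with 36 residual degrees of freedom and Benjamini-Hochberg adjustment over 10622 genes; the procedure was tested on simulated data. Members named with their values were, for each comparison, the 4 highest and 4 lowest called changes whose groups did not overlap and whose higher mean reached 2 FPKM (3 each for control over time), the members called most often and those called in none; further members are named to account for the counts and were chosen after their values were seen. Members, structural groups and gene lists were chosen with earlier results of these data known. Alternatives were a pseudocount of 0.1, no floor, quantile normalization, only the compared groups, a replicate block, leaving out single libraries, and another reference for ZT, eBL and GA3. Promoters were the 250 bases before the annotated start; the sequence of 1 further promoter is not reported here. Implied depth is the whole-read total of a library; no counting interval was computed.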

Additional observations from a re-analysis of the deposited data

Results flagged for a closer look

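The effect of a compound was compared between 2 times by the interaction term of the limma fit over all genes. Values are given only for the 9 cases in which a member had been called in opposite directions at the 2 times. A difference was therefore nearly fixed in advance, and the adjusted p-values of these cases add no separate support. Each value below is the later effect minus the earlier one, on the log2(FPKM + 1) scale. Each effect is set against the control of its own time, and the control changed too. Calls by this test, without that selection, were common over all genes. For 30 against 5 min, 19 of 32 members were called with ZT and 12 with GA3, beside 40.4% and 39.5% of all genes. For 180 against 30 min 4 members were called with IAA, 6 with ZT, 14 with eBL and 10 with GA3, beside 9.26%, 19.1%, 29.5% and 23.8% of all genes.

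With ZT, WRKY60 had a lower effect at 30 min than at 5 min, with a difference of -2.504 (SE 0.20, limma adjusted p = 1.54e-13), and of -1.88 under quantile normalization. WRKY49 with ZT changed the other way, by 2.66 (SE 0.38, limma adjusted p = 2.93e-07), its effect being higher at 30 min than at 5 min, and by 2.90 under quantile normalization. WRKY40 with ZT differed by -0.90 for 30 against 5 min (limma adjusted p = 3.1e-05) and by 0.86 for 180 against 30 min (limma adjusted p = 0.000218).

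With GA3, WRKY49 differed by 2.67 (limma adjusted p = 2.69e-07) and WRKY45 by 1.88 (limma adjusted p = 7.27e-13) for 30 against 5 min, and WRKY53 differed by -1.35 (limma adjusted p = 3.95e-05) for 180 against 30 min. WRKY30 with eBL differed by -1.03 (limma adjusted p = 0.000128) and WRKY40 with IAA by 0.90 (limma adjusted p = 0.000227), both for 180 against 30 min.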

How the results depend on the processing

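Of 952 values of 77 named changes under the alternatives, 880 kept their direction and side of the threshold, 68 kept only their direction and 4 reversed. All 4 reversals came with the mean of the other two of ZT, eBL and GA3 in place of control: WRKY45 was at -0.0177 with ZT and -0.232 with GA3 at 30 min and at -0.109 with GA3 at 180 min, and WRKY75 at -0.207 with eBL at 180 min. Changes outside these 77 reversed with this reference too. WRKY9 was at -0.523 and WRKY57 at -0.414 with GA3 at 30 min, and WRKY30 at 0.431 with eBL at 180 min. Each was called in the direction opposite to that against control. The cause was not tested. Counts of called members moved by over 1.5 times in these cases. Without the floor they were 2 with IAA and 8 with GA3 at 5 min, 0 with GV and 2 with IAA at 30 min, 6 with IAA at 180 min and 3 for control at 180 against 30 min, where more genes are tested. For GV at 30 min limma then called 0 members, while 5 had an unadjusted p under 0.05 in the fit with the floor. Quantile normalization gave 1 with eBL at 5 min and 2 with GV at 30 min. Fitting only the compared groups gave 2 with eBL at 5 min and 13 with eBL at 30 min. Without eBL 30 min replicate 3 they were 1 with eBL at 5 min, 2 with GV at 30 min and 8 with GV at 180 min. Leaving out single libraries gave, at 5 min, 6 to 9 called members with GV, 2 to 6 with IAA, 15 to 19 with ZT, 0 to 1 with eBL and 9 to 17 with GA3. At 30 min they were 1 to 2, 2 to 6, 11 to 14, 22 to 24 and 9 to 13 with the same compounds, and at 180 min 4 to 8, 7 to 12, 12 to 15, 12 to 17 and 12 to 15. For control they were 11 to 13 at 30 against 5 min and 3 to 7 at 180 against 30 min. Same-numbered libraries did not deviate together in any comparison, and with the replicate block 18 members were called with ZT at 5 min and 10 with GA3 at 30 min, with every other count and all 77 named calls as without it. Depth limits the members near 1 FPKM, where 1 read in 1 kb is worth up to 0.0562 FPKM.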
